A study of Homo sapiens with 6 samples.

Results

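The mitochondrially encoded genes are the 37 rows of the gene table that lie on chromosome MT, of 58825 genes in all. They comprise 13 protein genes, 2 rRNA genes and 22 tRNA genes, and all 37 had the same position and strand in GENCODE release 29 (GRCh38). The values come from bulk RNA sequencing of T24, a bladder carcinoma cell line of human origin. One group carried the control hairpin shNC-1, with the genotype label WT, and the other carried shDLGAP5-1, a hairpin against the spindle protein gene DLGAP5, with 3 libraries in each; they are called control and knockdown here. Each group rests on 1 hairpin construct, and the labels name no separate cultures, which leaves the p-values to measure a spread between libraries that may be technical. The comparison asks which of these transcripts differed between the hairpins, in a study of DLGAP5 and E2F1.

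Human mitochondrial DNA is a small circle with almost no spacers and no introns. Long precursors are copied from both strands by the polymerase POLRMT, with TFAM and TFB2M as its initiation factors, and are cut into single RNAs mostly at the tRNAs that sit between the other genes. The precursor copied from the heavy strand holds both rRNAs, 12 of the protein genes and 14 tRNAs, and the precursor from the light strand holds MT-ND6 and 8 tRNAs. The protein genes encode core subunits of respiratory complexes I, III and IV and of the ATP synthase, complex V, while MT-RNR1 and MT-RNR2 encode the 12S and 16S rRNAs of the mitochondrial ribosome. Most mitochondrial mRNAs receive a poly(A) tail, the rRNAs receive a short one, and mature tRNAs end in CCA.

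DLGAP5 itself, the check of the labels, lay at 29.7 to 33.0 FPKM in the controls and at 4.0 to 7.5 FPKM in the knockdown. FPKM are fragments per kilobase of transcript, scaled to library size. Depth, read off the steps between low values, was about 21800000 to 27700000 fragments in the controls and 13800000 to 18400000 in the knockdown, so low genes were measured with less precision in the second group. The keratins KRT7, KRT8 and KRT18 stood at 237 FPKM or more in every library. Of 15 epithelial and urothelial markers 8 reached 1 FPKM in a library (summed level 1295 to 1544 FPKM in the controls and 1167 to 1461 FPKM in the knockdown). Among these, KRT5 did so only in shNC-1 replicate 2 (3.95 FPKM) and UPK3A only in shDLGAP5-1 replicate 3 (2.28 FPKM). UPK1A, UPK1B, UPK2, GATA3, CDH1 and TP63 stayed under 1 FPKM, and KRT20 was listed at 0. The mesenchymal markers VIM and CDH2 stood at 1134 to 1630 FPKM and 30.7 to 38.4 FPKM over all 6 libraries. Of 14 blood cell markers, all of white cells but the red cell gene HBB (at most 0.0145 FPKM), 8 reached 1 FPKM in at least 1 library. Their summed level was 5.53 to 24.8 FPKM in the controls, 23.1 and 12.9 FPKM in shDLGAP5-1 replicates 1 and 2, and 730 FPKM in shDLGAP5-1 replicate 3, where LYZ, lysozyme, made up 686 FPKM. In that library S100A9 stood at 10.2 FPKM, the pan-leukocyte gene PTPRC at 7.03, NKG7 at 3.16, CSF1R at 2.45 and ITGAM at 1.40 FPKM. PTPRC, NKG7, CSF1R and ITGAM stayed at or under 0.291 FPKM in the other libraries. CD74, a chaperone of antigen presentation, stood at 2.51 to 3.00 FPKM in the controls and at 10.55 to 14.8 FPKM in all knockdown libraries. CD3D, CD3E and MS4A1, which define T and B cells, were listed at 0 in all 6 libraries. The estimate without shDLGAP5-1 replicate 3 is given beside each mitochondrial gene whose call it changed and beside some others. Further genes moved too, such as MT-RNR2 from 1.43 to 1.58, MT-RNR1 from 0.84 to 1.01, MT-ATP6 from 0.01 to 0.20 and MT-TW from −0.34 to −0.14 in log2 fold change. The median of all 37 went from 0.01 to 0.16. The part of white blood cells in the results was not tested further.

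The total of mitochondrial RNA overlapped between groups, but its make-up differed. The 37 genes summed to 36311 to 43523 FPKM in the controls and 38016 to 52453 FPKM in the knockdown, ranges that overlapped. They were 8.35% to 10.54% of all FPKM in the controls and 8.81% to 11.2% in the knockdown. Within that mitochondrial total, the rRNAs took 6.32%, 7.11% and 7.51% in control libraries 1 to 3 and 15.1%, 14.7% and 14.7% in knockdown libraries 1 to 3, so the groups were far apart. Protein genes took 89.5% to 91.1% against 82.8% to 83.2%, and tRNAs 2.57% to 3.02% against 2.09% to 2.15%. These shares sum to the whole, so a larger share of rRNA leaves a smaller one for the rest. In summed FPKM the groups overlapped for protein genes, at 32486 to 39650 in the controls and 31628 to 43409 in the knockdown. The tRNA sums also overlapped, at 1048 to 1123 and 793 to 1128 FPKM. In bulk RNA, more mitochondria per cell, more RNA per mitochondrion and a change in which cells were present cannot be told apart.

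All 37 genes passed the filter of at least 1 FPKM in at least 3 libraries, and limma called 5 of them at an adjusted p under 0.05. These 5 (13.5%) were 3 higher and 2 lower, while the same fit called 24.8% of all 12714 genes tested, 15.3% higher and 9.52% lower. The members higher in the knockdown were MT-RNR2, MT-RNR1 and MT-TF, and those lower were MT-TY and MT-TQ. In 10 of the 37 (27.0%) the groups did not overlap, 4 higher and 6 lower, against 43.9% of all genes, 25.6% higher and 18.3% lower. An unadjusted p under 0.05 was reached by 12 of the 37 (32.4%), 3 higher and 9 lower, and by 38.6% of all genes, 22.9% higher and 15.8% lower. These shares of the members lie below the background, apart from the share of lower genes at the unadjusted p. The median log2 fold change of the 37 was 0.01, beside 0.03 over all genes tested, and 0.16 without shDLGAP5-1 replicate 3. Under other scalings the median of the 37 was between −0.22 and −0.04, and the calls were 2 higher and 4 lower with libraries scaled to the same total. For comparison at high abundance, the 47 nuclear genes with a mean of at least 1000 FPKM had a median of 0.40. Of them 7 were called higher and 1 lower, and the cutoff was chosen after values were seen. Among the 37, the 22 tRNA genes and MT-ND6 lay under that cutoff, so their abundance was not similar. The 5 calls among mitochondrial genes became 2 without shNC-1 replicate 1, 1 without replicate 2 and 2 without replicate 3. They became 9 without shDLGAP5-1 replicate 1, 3 without replicate 2 and 8 without replicate 3.

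**Figure D1:**
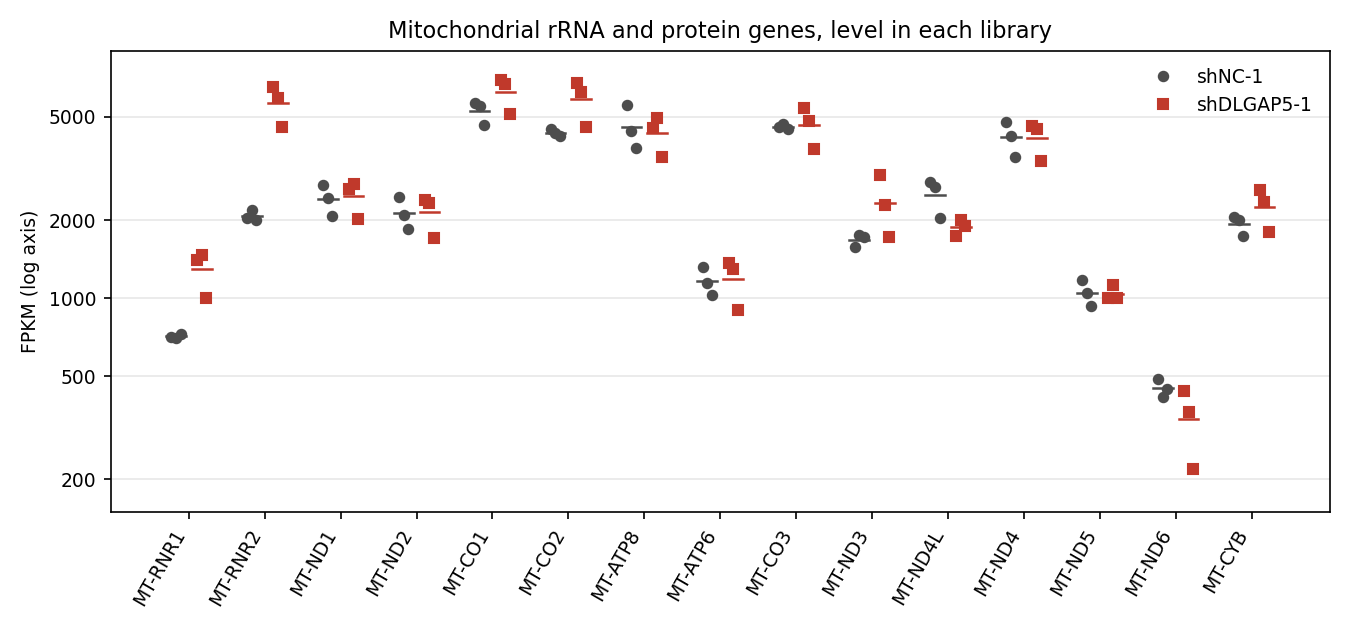
Level of the 2 mitochondrial rRNA genes and 13 protein genes in each library, in FPKM on a log axis, in genome order. Circles are the 3 shNC-1 libraries, squares the 3 shDLGAP5-1 libraries and lines the means. The squares of MT-RNR1 and MT-RNR2 lie above all circles, while in most protein genes the groups overlap.

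MT-RNR2, the 16S rRNA of the large ribosomal subunit, was the member with the smallest p. It stood at 2040, 2193 and 2004 FPKM in control libraries 1 to 3 and at 6510, 5930 and 4592 FPKM in knockdown libraries 1 to 3. The lowest knockdown library was above the highest control library by more than the whole level of any control. The mean went from 2079 ± 101 to 5677 ± 984 FPKM (n = 3 each, SD), which is 1.43 in log2 fold change (standard error 0.18, limma adjusted p = 0.00271). As a ratio this was 2.70, with a 95% interval of 2.03 to 3.61. Permuting the FPKM exactly, two-sided, gave p = 0.1, the smallest possible for 3 against 3 libraries. Among all genes of a library, MT-RNR2 ranked between 11 and 16 by FPKM in the controls and between 2 and 3 in the knockdown. MT-RNR2 is ENSG00000210082, 1559 bases long, on the plus strand of MT from 1671 to 3229.

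MT-RNR1, the 12S rRNA of the small subunit, rose as well, but by less. It stood at 710, 702 and 724 FPKM in control libraries 1 to 3 and at 1405, 1472 and 1004 FPKM in knockdown libraries 1 to 3. The control libraries were nearly level, and shDLGAP5-1 replicate 3 was the lowest of its group while still above all controls. The mean went from 712 ± 11.4 to 1294 ± 253 FPKM (n = 3 each, SD), which is 0.84 in log2 fold change (standard error 0.17, limma adjusted p = 0.0138) and a ratio of 1.79 (95% interval 1.36 to 2.36). The call ended without shNC-1 replicate 1 (adjusted p = 0.0532) or replicate 2 (0.0610) and without the filter on low values (0.0679), whereas that of MT-RNR2 held in each of 17 alternative settings. MT-RNR1 is ENSG00000211459, 954 bases long, on the plus strand from 648 to 1601.

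The balance between the rRNAs also differed. FPKM of MT-RNR2 were 2.87, 3.13 and 2.77 times those of MT-RNR1 in control libraries 1 to 3 and 4.63, 4.03 and 4.58 times in knockdown libraries 1 to 3. The summed rRNA was 0.0694, 0.0788 and 0.0840 of the summed protein gene FPKM in the controls and 0.182, 0.177 and 0.177 in the knockdown. The knockdown values lay close together although their absolute rRNA levels ran from 5596 to 7915 FPKM. No p is given for such sums and ratios, since the members were chosen with results known.

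**Figure D2:**
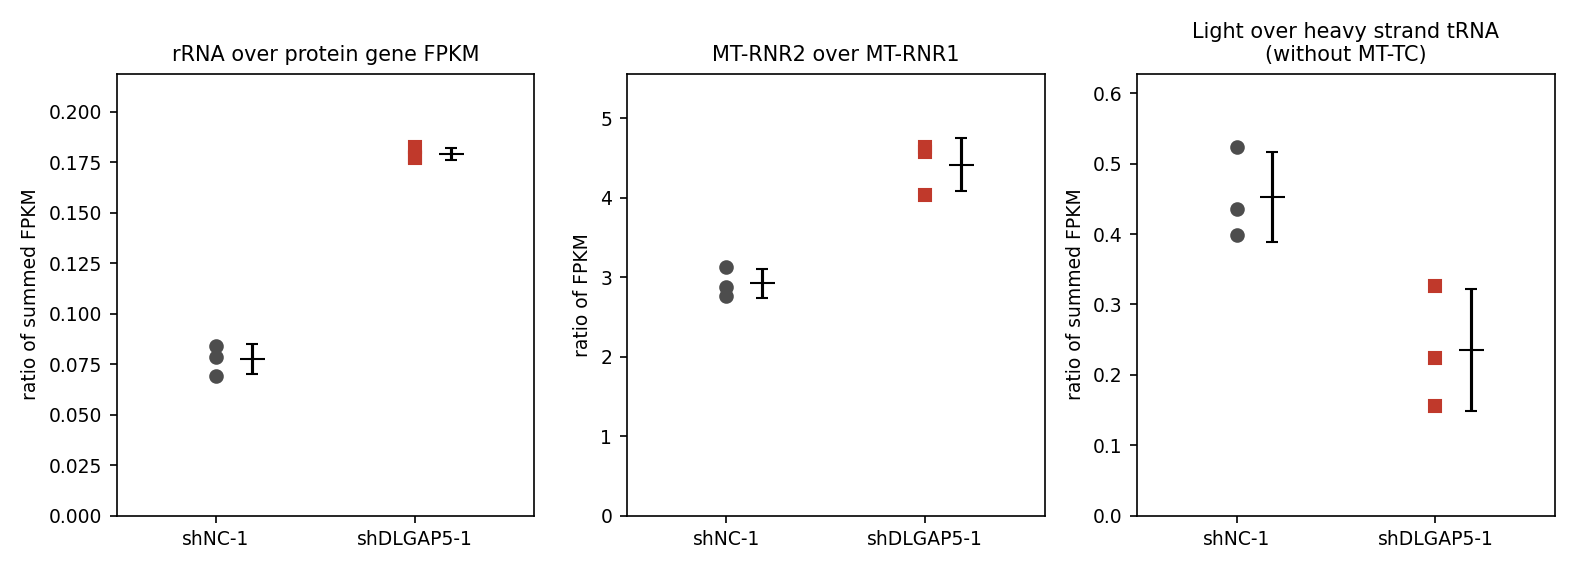
Ratios within each library, on linear axes from 0: summed rRNA over summed protein gene FPKM, MT-RNR2 over MT-RNR1, and summed light strand over heavy strand tRNA FPKM without MT-TC. Points are libraries, and bars beside them are the mean ± SD of 3. In each panel no library of one group reaches the range of the other.

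The labels name an mRNA library kit and not how mRNA was captured, and the part of capture in the rRNA result was not tested. The levels of 5 nuclear RNAs that lack a poly(A) tail, chosen after their values were seen, are given as a description. RN7SK, which holds back transcription elongation, stood at 318, 538 and 66.2 FPKM in control libraries 1 to 3 and at 49.2, 91.9 and 57.0 FPKM in knockdown libraries 1 to 3. RN7SL1, an RNA of the signal recognition particle, stood at 363, 911 and 216 FPKM in the controls and at 347, 477 and 235 FPKM in the knockdown. With RN7SL2, RMRP and RPPH1 the 5 had log2 fold changes of −1.81 to −0.05, the groups overlapped in each, and limma called 0 of them, with an unadjusted p under 0.05 in 1 (RN7SK, adjusted p = 0.105). Their standard errors were 0.43 to 0.71, against 0.17 and 0.18 for the rRNAs, so these values do not show whether such RNAs moved.

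The rRNA genes are framed by 3 tRNA genes with no base between any of them, of which limma called 1. MT-TF, the phenylalanine tRNA at the start of the heavy strand precursor, stood at 45.5, 49.4 and 49.5 FPKM in the controls and at 58.4, 63.2 and 62.6 FPKM in knockdown libraries 1 to 3. It rose by 0.35 on the log2 scale (standard error 0.10, limma adjusted p = 0.0374), with no overlap between groups. The call held in 6 of 17 alternative settings and was lost in 5 of the 6 fits without 1 library, all but that without shDLGAP5-1 replicate 1, with adjusted p of 0.0745 to 0.142; the estimate without shDLGAP5-1 replicate 3 was 0.33. MT-TV, the valine tRNA between the rRNAs, which is also a structural RNA of the mitochondrial ribosome, had a mean of 62.3 ± 7.35 FPKM in the controls and 60.5 ± 6.15 FPKM in the knockdown (n = 3 each, SD; log2 fold change −0.04, limma adjusted p = 0.841). MT-TL1, a leucine tRNA directly after MT-RNR2, had means of 286 ± 41.8 and 301 ± 39.8 FPKM (log2 fold change 0.08, limma adjusted p = 0.748). Relative to MT-RNR2, MT-TL1 was at 0.119 to 0.157 in the controls and at 0.0405 to 0.0645 in the knockdown.

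The sequences of these tRNA genes are shown because they are the cut points around the rRNAs; MT-TL1 is also known to hold the binding site of MTERF1, a factor that ends transcription. They are read from GENCODE release 29 transcripts (GRCh38), 5′ to 3′ on the RNA's strand. Capitals mark the anticodon, placed by its letters and the pairing of the stem around it.
MT-TF (MT:577-647, plus strand): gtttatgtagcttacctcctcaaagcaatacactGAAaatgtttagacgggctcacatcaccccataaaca
MT-TV (MT:1602-1670, plus strand): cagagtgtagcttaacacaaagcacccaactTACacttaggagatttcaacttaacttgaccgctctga
MT-TL1 (MT:3230-3304, plus strand): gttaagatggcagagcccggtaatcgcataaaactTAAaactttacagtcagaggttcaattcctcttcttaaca

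**Figure D3:**
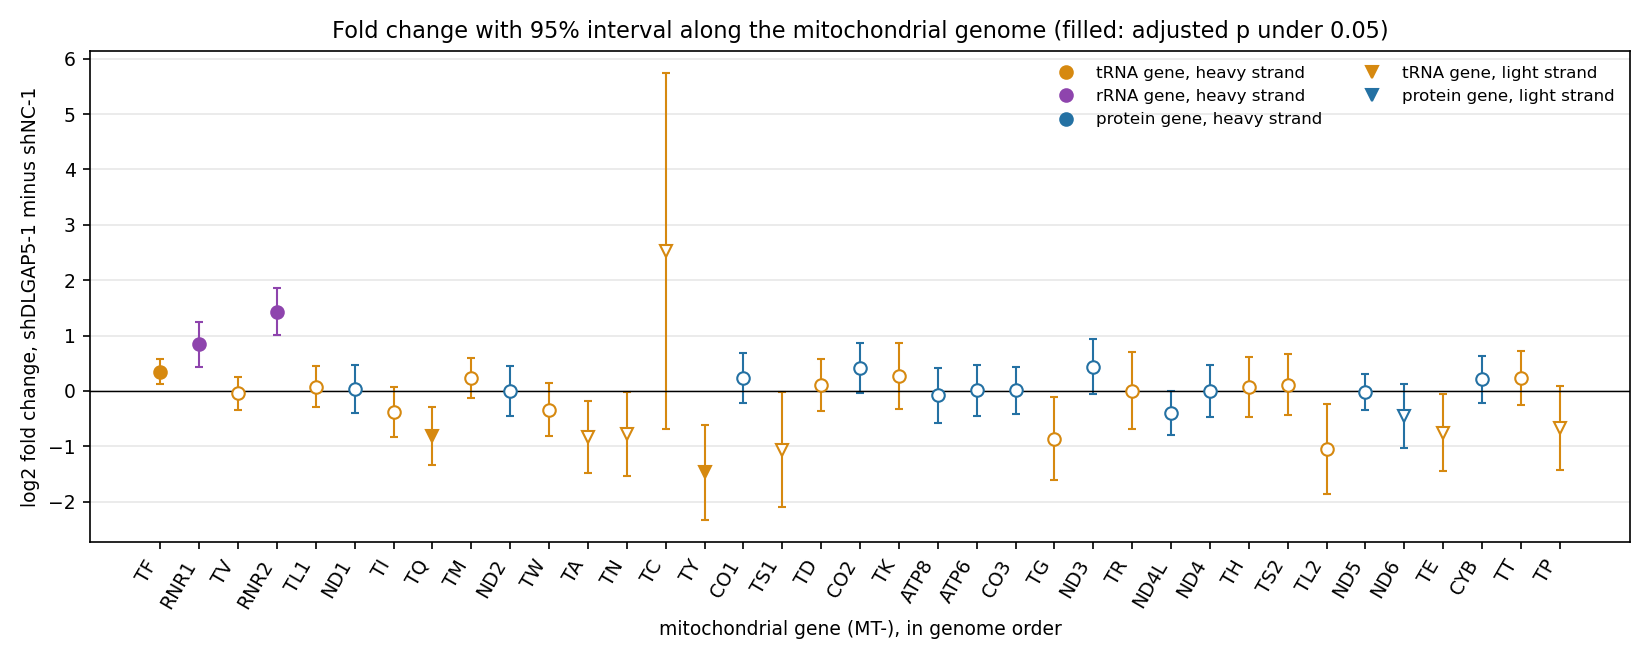
Log2 fold change of each mitochondrial gene, shDLGAP5-1 minus shNC-1, in genome order, with the 95% interval of limma. Circles are heavy strand genes and triangles light strand genes, filled where the adjusted p was under 0.05. MT-TF, MT-RNR1 and MT-RNR2 at the left are filled and above 0, and the light strand triangles other than MT-TC lie below 0.

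Among the 13 protein genes limma called 0, beside 24.8% of all genes tested. An unadjusted p under 0.05 was reached by 1 (7.69%, beside 38.6% of all genes). The median log2 fold change was 0.01, and in 11 the groups overlapped. In 2 (15.4%) they did not, beside 43.9% of all genes. Levels within the controls ran from 450 ± 35.01 FPKM for MT-ND6 to 5284 ± 543 FPKM for MT-CO1 (SD, n = 3). FPKM are divided by length, but levels of different genes can be set side by side only roughly here. MT-ATP8 was listed at least 3.32 times as high as MT-ATP6 in every library, although both lie on 1 mRNA. MT-ATP8 and MT-ATP6, which overlap, and MT-ND4L and MT-ND4, which also do, share fragments. A p that misses the threshold does not show equal levels, and the 95% intervals of the ratios are therefore given below.

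The complex IV genes encode the catalytic core of cytochrome c oxidase. MT-CO2, which holds the first copper site, stood at 4492, 4327 and 4227 FPKM in control libraries 1 to 3 and at 6745, 6248 and 4579 FPKM in knockdown libraries 1 to 3. No knockdown library reached down to a control, but replicate 3 lay only just above them. The log2 fold change was 0.41 (limma adjusted p = 0.162, ratio interval 0.972 to 1.82), and it passed the threshold only in the fit without shDLGAP5-1 replicate 3, at 0.58 (adjusted p = 0.0384). MT-CO1, with the haem and copper centre, had means of 5284 ± 543 and 6261 ± 978 FPKM (n = 3 each, SD; log2 fold change 0.24, ratio interval 0.865 to 1.61). MT-CO3 had means of 4586 ± 107 and 4667 ± 837 FPKM (log2 fold change 0.01, ratio interval 0.747 to 1.36). MT-CYB, cytochrome b of complex III, had means of 1930 ± 166 and 2251 ± 418 FPKM (log2 fold change 0.21, ratio interval 0.861 to 1.55). Without shDLGAP5-1 replicate 3 the estimate was 0.37 for MT-CO1, 0.16 for MT-CO3 and 0.36 for MT-CYB, none past the threshold.

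Of the 7 complex I genes 3 had estimates above 0 and 4 below. MT-ND3 stood at 1569, 1753 and 1722 FPKM in control libraries 1 to 3 and at 2982, 2288 and 1726 FPKM in knockdown libraries 1 to 3. Its groups overlapped through shDLGAP5-1 replicate 3 alone. The log2 fold change was 0.44 (limma adjusted p = 0.175), and 0.64 without that library (adjusted p = 0.0416). MT-ND4L stood at 2799, 2671 and 2033 FPKM in the controls and at 1731, 2006 and 1896 FPKM in the knockdown, all under the controls by a small margin. Its log2 fold change was −0.40 (limma adjusted p = 0.128), which passed only with quantile normalization (−0.84, adjusted p = 0.0170). MT-ND1, MT-ND2, MT-ND4 and MT-ND5, the remaining heavy strand subunits, had log2 fold changes of 0.03, 0.00, −0.00 and −0.01, and their ratio intervals ran together from 0.719 to 1.38. Relative to MT-ND4, with which it shares a precursor, MT-ND4L was at 0.582 to 0.632 in the controls and at 0.375 to 0.560 in the knockdown.

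The ATP synthase subunits MT-ATP8 and MT-ATP6 are translated from 1 mRNA. MT-ATP8 had means of 4582 ± 886 FPKM in the controls and 4325 ± 735 FPKM in the knockdown (n = 3 each, SD; log2 fold change −0.08, limma adjusted p = 0.812). MT-ATP6 had means of 1165 ± 147 and 1186 ± 253 FPKM (log2 fold change 0.01, limma adjusted p = 0.977). MT-ATP8 was listed 3.68 to 4.196 times as high as MT-ATP6 in the controls and 3.32 to 3.91 times as high in the knockdown, although both lie on the same RNA. A nuclear copy of MT-ATP6 also drew fragments, as given further on. The bases shared by MT-ATP8 and MT-ATP6, and by MT-ND4L and MT-ND4, are shown because a fragment there cannot be given to 1 gene. MT-ATP6 and MT-CO3 also overlap, by 1 base, which is not shown. Capitals mark the start codon of MT-ATP6 and the stop codon of MT-ATP8 in the first sequence, and in the second, the last 30 bases of MT-ND4L, the 7 bases shared with MT-ND4.
MT-ATP8 and MT-ATP6 overlap (MT:8527-8572, plus strand): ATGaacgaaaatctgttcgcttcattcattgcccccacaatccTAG
MT-ND4L end (MT:10737-10766, plus strand): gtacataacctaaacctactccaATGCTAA

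In 6 of the 13 protein genes the annotated RNA ends before the stop codon is whole, and the poly(A) tail supplies the missing bases. These were MT-ND1, MT-ND2, MT-CO3, MT-ND3, MT-ND4 and MT-CYB. Their log2 fold changes were −0.00 to 0.44, and those of the 7 with a whole codon −0.45 to 0.41. The last 24 bases of 4 genes are printed to show both kinds of end, with the stop codon, or the part of it in the gene, in capitals.
MT-CO2 end (MT:8246-8269, plus strand): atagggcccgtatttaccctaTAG
MT-CO3 end (MT:9967-9990, plus strand): tctccatctattgatgagggtctT
MT-ND1 end (MT:4239-4262, plus strand): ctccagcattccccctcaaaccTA
MT-ND3 end (MT:10381-10404, plus strand): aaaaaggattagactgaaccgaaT

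The 9 light strand genes had lower estimates in the knockdown, with 1 exception. Apart from MT-TC, all 8 had a log2 fold change below 0, from −1.47 to −0.45 with a median of −0.80. The differences were smaller without shDLGAP5-1 replicate 3, where the 8 ran from −1.08 to −0.17 with a median of −0.46. None of the 8 changed sign in any of 17 alternative settings. The 28 heavy strand genes had a median of 0.05, and of 0.19 without that library. Limma called 2 light strand genes lower and 0 higher, where 9.52% of all genes tested were called lower, and 6 of the 9 had a lower level at an unadjusted p under 0.05, which 15.8% of all genes had. Whether the strands differed from each other was not tested. The use of strand in the authors' counting is not given in the sources used here, so RNA of the heavy strand precursor over these genes cannot be told apart from their own.

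MT-TY, the tyrosine tRNA, stood at 53.8, 53.8 and 76.6 FPKM in control libraries 1 to 3 and at 37.1, 21.1 and 12.03 FPKM in knockdown libraries 1 to 3. The groups did not overlap, and shDLGAP5-1 replicate 3 was the lowest of all. MT-TY fell by 1.47 on the log2 scale (standard error 0.37, limma adjusted p = 0.0275; ratio 0.361, 95% interval 0.199 to 0.655). MT-TQ, the glutamine tRNA, stood at 57.5, 59.0 and 63.7 FPKM in the controls and at 45.6, 35.9 and 23.4 FPKM in knockdown libraries 1 to 3, again without overlap. It fell by 0.81 on the log2 scale (standard error 0.22, limma adjusted p = 0.0371; ratio 0.569, 95% interval 0.396 to 0.819). Both calls held in 10 of 17 alternative settings. Both were lost in fits without any 1 of the control libraries or without shDLGAP5-1 replicate 2. There the limma adjusted p was 0.0633 to 0.0836 for MT-TY and 0.0847 to 0.0998 for MT-TQ. Both were also lost without the filter on low values (limma adjusted p = 0.0986 for MT-TY and 0.114 for MT-TQ). The same held with a replicate block, with or without removal of the length trend. Without shDLGAP5-1 replicate 3 the calls held, at −1.08 for MT-TY and −0.56 for MT-TQ. The labels name an mRNA library kit, and whether fragments over the tRNA genes come from mature tRNA or uncut precursor was not tested. The sequences of both genes are shown because limma called them lower, on the RNA's strand, with the anticodon in capitals. The gene of MT-TQ overlaps that of MT-TI on the other strand by 3 bases.
MT-TQ (MT:4329-4400, minus strand): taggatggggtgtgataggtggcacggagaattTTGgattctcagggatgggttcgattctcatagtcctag
MT-TY (MT:5826-5891, minus strand): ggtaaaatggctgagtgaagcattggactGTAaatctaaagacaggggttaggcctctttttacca

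MT-ND6, the light strand's protein gene and a membrane subunit of complex I, stood at 486, 416 and 447 FPKM in control libraries 1 to 3 and at 438, 365 and 220 FPKM in knockdown libraries 1 to 3. The groups overlapped, and shDLGAP5-1 replicate 3 stood apart at the low end. In log2 fold change this came to −0.45 (standard error 0.24, limma adjusted p = 0.219), and −0.17 without that library. The 5 other light strand tRNAs without MT-TC also had estimates below 0. MT-TS1, a serine tRNA, had means of 37.8 ± 4.05 FPKM in the controls and 20.4 ± 12.4 FPKM in the knockdown (n = 3 each, SD) with no overlap. MT-TE, the glutamate tRNA beside MT-ND6, had means of 117 ± 13.7 and 73.3 ± 30.4 FPKM with overlap. MT-TA, MT-TN and MT-TP, for alanine, asparagine and proline, had log2 fold changes of −0.84, −0.78 and −0.68 and overlapping groups. The limma adjusted p of these 5 ran from 0.0656 to 0.169. Without shDLGAP5-1 replicate 3 the estimates were −0.50 for MT-TS1, −0.41 for MT-TE, −0.61 for MT-TA, −0.40 for MT-TN and −0.28 for MT-TP, from −1.06, −0.75, −0.84, −0.78 and −0.68 with it.

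As a sum, the 7 light strand tRNAs without MT-TC stood at 327, 298 and 377 FPKM in control libraries 1 to 3 and at 268, 189 and 105 FPKM in knockdown libraries 1 to 3. The 14 heavy strand tRNAs summed to 750, 750 and 720 FPKM in the controls and to 819, 845 and 675 FPKM in the knockdown. Thus the light strand sum without MT-TC did not overlap between groups, with or without shDLGAP5-1 replicate 3, and the heavy strand sum did overlap. This separation depends on leaving out MT-TC, listed at 0.167 FPKM in shNC-1 replicate 2 and at 41.3 FPKM in shDLGAP5-1 replicate 1. With MT-TC added, the sum of that knockdown library lies above that of shNC-1 replicate 2, and the groups overlap. Without MT-TC, the light strand sum was 0.398 to 0.523 of the heavy strand sum in the controls and 0.155 to 0.327 in the knockdown.

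**Figure D4:**
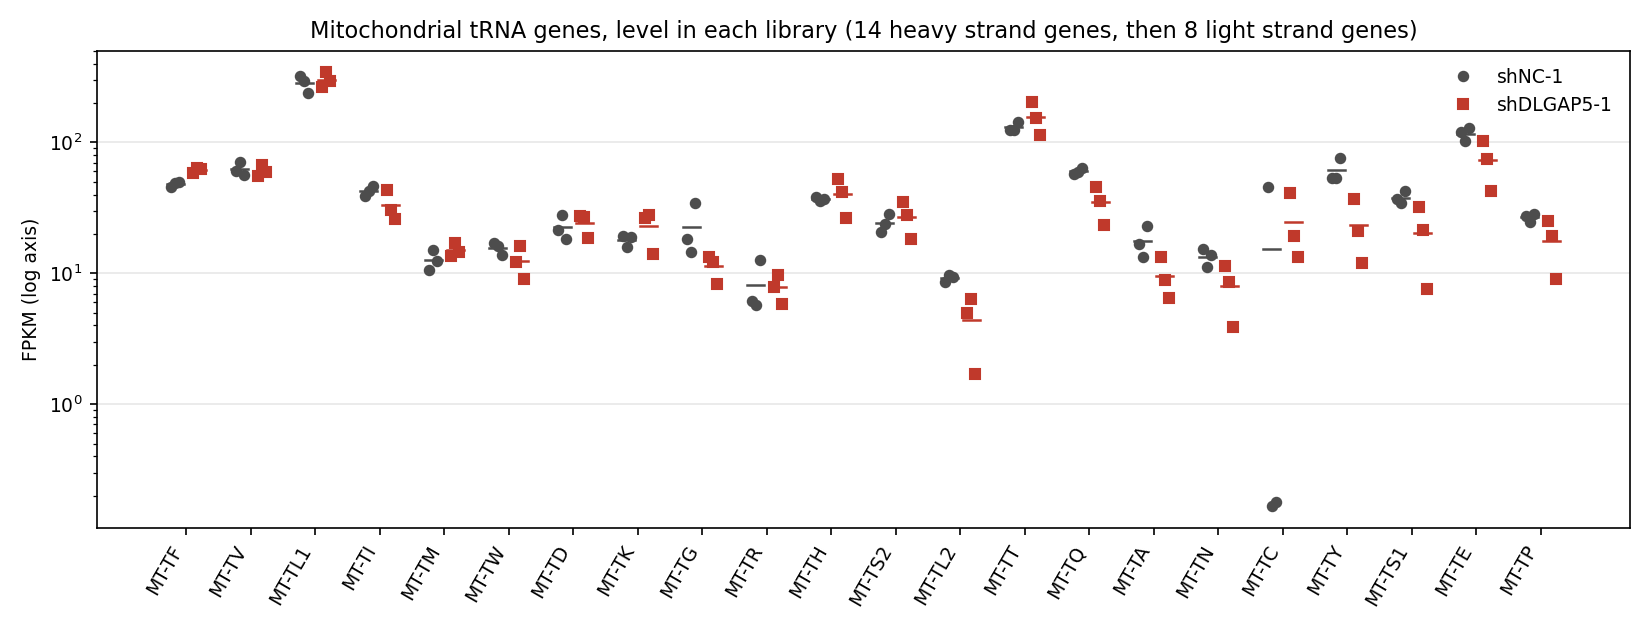
Level of the 22 mitochondrial tRNA genes in each library, in FPKM on a log axis, with 14 heavy strand genes on the left and 8 light strand genes on the right. Circles are shNC-1 libraries, squares shDLGAP5-1 libraries and lines the means. The squares of MT-TY and MT-TQ lie under all circles, those of MT-TF above, and MT-TC has 2 circles near 0.2 FPKM.

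MT-TC, the cysteine tRNA, was the exception. It was listed at 45.9, 0.167 and 0.177 FPKM in control libraries 1 to 3 and at 41.3, 19.2 and 13.3 FPKM in knockdown libraries 1 to 3. Its neighbour MT-TY, which it overlaps by 1 base on the same strand, showed no such drop in shNC-1 replicates 2 and 3. The fitted log2 fold change was 2.52, with a 95% interval of −0.70 to 5.74, and it was called only in the fit without shNC-1 replicate 1 (4.30, adjusted p = 0.00693). Whether values near 0 beside such neighbours are failed estimates was not tested.

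The remaining heavy strand tRNAs showed no call. The most abundant after MT-TL1 was MT-TT, the threonine tRNA, with means of 131 ± 10.9 FPKM in the controls and 158 ± 45.5 FPKM in the knockdown (n = 3 each, SD). MT-TL2, the other leucine tRNA, stood at 8.64, 9.73 and 9.37 FPKM in the controls and at 5.01, 6.39 and 1.71 FPKM in knockdown libraries 1 to 3, without overlap (log2 fold change −1.05, limma adjusted p = 0.0643). It was called lower in 5 of 17 alternative settings, among them the fits without shDLGAP5-1 replicate 2 (−1.34, adjusted p = 0.0484) and replicate 3 (−0.62, adjusted p = 0.0273). MT-TG, the glycine tRNA, stood at 18.3, 14.5 and 34.6 FPKM in the controls and at 13.4, 12.3 and 8.27 FPKM in the knockdown, also without overlap (log2 fold change −0.86, limma adjusted p = 0.0897). MT-TI, MT-TM, MT-TW, MT-TD, MT-TK, MT-TR, MT-TH and MT-TS2, which serve isoleucine, methionine, tryptophan, aspartate, lysine, arginine, histidine and serine, had log2 fold changes of −0.38 to 0.27 with overlapping groups. Without shDLGAP5-1 replicate 3, MT-TK was called higher, at 0.57 against 0.27 with it (adjusted p = 0.0256). The estimates of MT-TT, MT-TH and MT-TS2 moved from 0.23, 0.07 and 0.11 to 0.44, 0.34 and 0.36, and none of these 3 was called. A tRNA gene is 59 to 75 bases long, and fewer fragments stand behind these values than behind those of the rRNA and protein genes. At the estimated depths MT-TL2 rests on about 2 to 19 fragments per library, MT-TY on about 15 to 125 and MT-TQ on about 31 to 118, against 14766 to 140061 for the rRNAs.

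Nuclear DNA holds copies of mitochondrial genes, and their reads can be confused with those of the originals. The table lists 407 such copies by symbol, of which 3 had a mean of at least 5 FPKM, all on chromosome 1. MTATP6P1 (633696 to 634376), identical to MT-ATP6 in 98.5% of aligned bases, stood at 469 to 613 FPKM in the controls and 455 to 651 FPKM in the knockdown. It held 31.3% to 33.8% of the summed FPKM of the pair in the controls and 30.7% to 33.6% in the knockdown, so the split did not differ between groups beyond the spread. MTND2P28 (629640 to 630683), 98.2% identical to MT-ND2, stood at 80.0 to 101 FPKM in the controls and was lower in the knockdown, at 67.0 to 73.2 FPKM (log2 fold change −0.40, limma adjusted p = 0.0482). Its part of the summed FPKM of the pair was 3.93% to 4.38% in the controls and 2.76% to 3.79% in the knockdown, without overlap. MTCO1P12 (631074 to 632616) stood at 12.3 to 16.2 FPKM in all libraries. The 13 copies named after the rRNAs stayed at or under 0.618 FPKM in every library, where MT-RNR2 stood at 2004 FPKM or more.

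Respiratory complexes also hold subunits encoded in the nucleus, and these showed few calls as well. Of 75 tested nuclear subunits of complexes I, III, IV and V, 2 rose and 3 fell (6.67%, beside 24.8% of all genes), and the median in log2 fold change was 0.10 beside 0.03 over all genes. For complex I, 1 of 37 fell and 0 rose, and an unadjusted p under 0.05 was reached by 4 with a higher and 2 with a lower level, 16.2% beside 38.6% of all genes. NDUFS1, the largest iron-sulfur subunit, went from 12.1 ± 0.609 to 8.52 ± 0.833 FPKM (n = 3 each, SD). NDUFB1, NDUFA9 and NDUFA13, accessory subunits, had log2 fold changes of 0.65, −0.35 and 0.63, with limma adjusted p of 0.0631 to 0.0753. NDUFA13 overlaps YJEFN3 and AC011448.1 on the same strand, at up to 1.87 and 7.59 FPKM. Of 9 complex III genes limma called 0, with an unadjusted p under 0.05 in 1, CYC1, the cytochrome c1 gene (−0.26, adjusted p = 0.0994). UQCRFS1, UQCRC1 and UQCRB, the Rieske protein, a core protein and a small subunit, had log2 fold changes of −0.17, 0.15 and 0.28.

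In complex IV, 1 of 11 tested nuclear genes rose and 0 fell (9.09%, beside 24.8% of all genes), and the median was 0.19. COX7B, a small structural subunit, went from 25.5 ± 2.23 to 49.1 ± 16.8 FPKM (n = 3 each, SD; log2 fold change 0.87, limma adjusted p = 0.0346). COX7C had a log2 fold change of 0.52 (limma adjusted p = 0.0712), with COX7A2 at 0.31 and COX6B1 at 0.28. In complex V, 1 of 18 rose and 2 fell (16.7%), and all 3 encode the same protein, subunit c of the membrane ring. ATP5MC2 rose from 76.4 ± 17.9 to 148 ± 18.3 FPKM, while ATP5MC3 fell from 55.4 ± 15.8 to 30.2 ± 4.08 FPKM and ATP5MC1 from 82.1 ± 9.59 to 54.4 ± 11.01 FPKM. ATP5F1A, the alpha subunit, had a log2 fold change of −0.80 (limma adjusted p = 0.0875). The 3 ring genes are close paralogs, and the split of fragments between them is uncertain. Complex II, which holds no mitochondrially encoded subunit, had 1 of 4 genes lower, SDHB, its iron-sulfur subunit (−0.41, limma adjusted p = 0.0378), beside SDHC at 0.26, SDHA at −0.20 and SDHD at −0.16. Of these 6 nuclear calls that of ATP5MC2 alone held in all 6 fits without 1 library, and the others held in 1 or 2 of them. The 5 calls of complexes I, III, IV and V came down to 1 in fits that lacked control library 1 or 3, to 2 without control library 2 and to 3 without knockdown library 2. After removal of the length trend the nuclear calls of complexes I, III, IV and V were 2 higher and 8 lower.

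**Figure D5:**
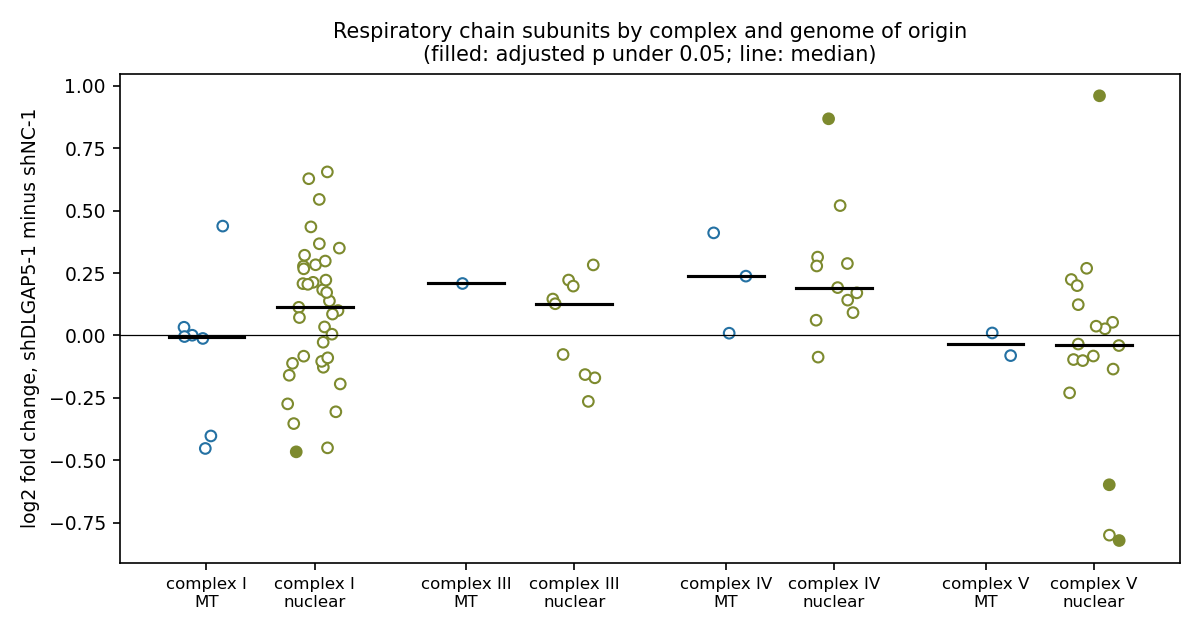
Log2 fold change, shDLGAP5-1 minus shNC-1, of respiratory chain subunits by complex, with mitochondrially encoded genes beside nuclear ones. Each point is a gene, filled where the adjusted p was under 0.05, and black lines are medians. No mitochondrially encoded subunit is filled, and the filled nuclear points of complex V lie on both sides of 0.

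The nuclear genes that copy, transcribe, cut and degrade mitochondrial DNA and RNA were called about as often as all genes. Of 72 tested members 5 rose, 11 fell and 56 were not called (22.2% called, beside 24.8% of all genes), and the median in log2 fold change was −0.12. Among 10 transcription genes 3 rose and 2 fell (50.0%). POLRMT, the mitochondrial RNA polymerase, rose from 8.48 ± 0.547 to 13.4 ± 0.875 FPKM (n = 3 each, SD; log2 fold change 0.60, limma adjusted p = 0.00933). TFB2M, which opens the promoter, fell from 13.3 ± 0.575 to 9.09 ± 0.875 FPKM, and TFAM, which binds and packs the DNA, from 25.5 ± 1.97 to 19.1 ± 1.64 FPKM. MTERF1, the factor known to bind in MT-TL1, rose from 3.18 ± 0.247 to 4.84 ± 0.378 FPKM, and MTERF3, a relative of it, from 14.2 ± 1.84 to 20.5 ± 2.70 FPKM. The limma adjusted p of these 4 ran from 0.0190 to 0.0403. The POLRMT call was lost without shNC-1 replicate 2, and that of TFB2M in each fit that lacked a control library. TFAM and MTERF1 were called in 1 of 6 fits without 1 library, the one without shDLGAP5-1 replicate 3, and MTERF3 in 0 of 6. Over all alternatives the adjusted p reached 0.225 for TFAM, 0.267 for MTERF1 and 0.317 for MTERF3.

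Of 16 genes of mitochondrial DNA replication and its nucleotide supply 2 rose and 2 fell, about the share of all genes called (24.8%). RNASEH1, which removes RNA from RNA-DNA hybrids, fell from 17.8 ± 1.79 to 10.1 ± 1.1998 FPKM (n = 3 each, SD), and SSBP1, the single-strand binding protein, had a log2 fold change of −0.47. TOP1MT, the mitochondrial topoisomerase, and POLG2, an accessory subunit of the DNA polymerase, rose by 0.60 and 0.62 on the log2 scale. Of 20 genes of RNA cutting and base modification 3 fell and 0 rose, beside 24.8% of all genes called and 9.52% called lower. An unadjusted p under 0.05 with a higher level was reached by 0 of the 20. ELAC2, which cuts precursors at the 3′ ends of tRNAs, fell from 36.6 ± 1.34 to 25.5 ± 3.62 FPKM. TRMU, which thiolates mitochondrial tRNAs including that for glutamine, fell from 35.8 ± 2.99 to 21.1 ± 1.03 FPKM, and NSUN2, an RNA methyltransferase, from 42.0 ± 2.57 to 24.3 ± 3.30 FPKM. PUS1, a pseudouridine synthase, had a log2 fold change of −0.71 (limma adjusted p = 0.0833). The calls of TOP1MT and POLG2 were lost without shNC-1 replicate 2, that of SSBP1 in 3 of 6 fits without 1 library and that of ELAC2 in 4 of 6.

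Of 20 genes of RNA stability and decay 3 fell and 0 rose, a smaller share than that of all genes called (24.8%). Over all genes 9.52% were called lower, so the share of lower genes alone was not below the background. An unadjusted p under 0.05 with a higher level was reached by 1 of the 20. PNPT1, the exonuclease of the mitochondrial degradosome, fell from 10.8 ± 0.839 to 7.23 ± 0.492 FPKM (n = 3 each, SD). FASTKD2, which binds MT-RNR2 and MT-ND6 RNA, and FASTKD5, needed for cuts that no tRNA marks, fell by 0.52 and 0.53 on the log2 scale; FASTKD5 overlaps UBOX5 on the same strand. SUPV3L1, the helicase partner of PNPT1, had a log2 fold change of −0.34 (limma adjusted p = 0.0629), and LRPPRC, which with SLIRP stabilizes mitochondrial mRNAs, 0.16 (limma adjusted p = 0.323). Among 6 tested nuclear regulators limma called 1 (16.7%, beside 24.8% of all genes). This was PPRC1, a coactivator of the PGC-1 family, which fell by 0.39 on the log2 scale (limma adjusted p = 0.0481). ESRRA, NRF1 and GABPB1, which are transcription factors or parts of one, had values of 0.52, −0.14 and 0.10. ESRRA overlaps TRMT112 on the other strand, at up to 80.3 FPKM, and strand use in the counting is not given. Of 6 fits without 1 library PNPT1 was called in 3, FASTKD5 in 2, and FASTKD2 and PPRC1 in 1. The 16 calls of the whole list came down to 3 without shNC-1 replicate 2, to 7 without replicate 1 or 3 of that group and to 8 without shDLGAP5-1 replicate 2, and RNASEH1, TRMU and NSUN2 were called in all 17 alternative settings.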

How the data were processed

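The table that the authors deposited holds values for 58825 genes that behave as FPKM, fragments divided by transcript length and library size. Its header names no unit; FPKM was read from the values, which are not whole, sum to 413001 to 487559 and scale inversely with length in low genes. How reads were aligned, counted and assigned to strands is not given in the sources used here. Per the labels' protocols, total RNA went into an mRNA library kit. Groups come from sample titles; control columns carry NC and a number, and the others, with a construct number, were given to shDLGAP5-1 as the only other group, numbered by their last digit. Overlapping and near-identical genes can share fragments, and dividing by library size lets abundant transcripts shift all others.

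The fit was limma 3.58.1 in R 4.3.3 on log2(FPKM + 1), with a variance trend and a group term, over the 12714 genes that reached 1 FPKM in 3 or more libraries, and p-values were adjusted by Benjamini-Hochberg over all genes tested. Fold changes on that scale understate low genes. Permutation tests were exact and two-sided. Depth is approximate, from the commonest low step of single-exon genes, so fragment numbers are approximate too. The fit was tested on simulated data. Members and lists were chosen with earlier results of these data known. Named were every mitochondrial gene, up to 4 genes of each list subset by p, further called genes, and nuclear copies with a mean of at least 5 FPKM. Alternatives were another pseudocount, other filters and scalings, removal of the length trend (lengths from GENCODE release 29), a replicate block and fits without 1 library.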

Additional observations from a re-analysis of the deposited data

How the results depend on the processing

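Depth limits the tRNA genes most, which rest on the fewest fragments, from about 2 to 19 per library for MT-TL2 to about 273 to 618 for MT-TL1. The 3155 calls over all genes became 2071 without a filter on low values and 1464 with a replicate block, and ran from 1326 to 2806 in fits without 1 library. Their split, 1944 higher and 1211 lower, was 1261 and 1379 with libraries scaled to the same total, 1306 and 1343 with that total taken without mitochondrial genes, 1511 and 1464 with quantile normalization and 1893 and 1890 after removal of the length trend. The 5 mitochondrial calls became 2 without a filter, 1 with a replicate block, 2 with the block after removal of the length trend, and 1 (without shNC-1 replicate 2) to 9 (without shDLGAP5-1 replicate 1) in fits without 1 library. The 16 calls of maintenance and expression genes became 9 without a filter and 5 with a replicate block, and ran from 3 to 15 without 1 library. The 5 calls of nuclear respiratory chain genes became 2 without a filter, 10 after removal of the length trend, 3 with the block, 3 with both, and 1 to 4 without 1 library. With libraries scaled to the 13 mitochondrial protein genes, a setting chosen after seeing the data, these counts were 1171, 8, 3 and 2. The cause was not tested, but fits without 1 library also hold fewer samples. MT-RNR2 was called in all 17 settings, with log2 fold changes of 1.07 to 1.58, and MT-RNR1 in 13, with 0.54 to 1.01. None of the 5 called genes changed sign, while 15 of the 32 not called did in at least 1 setting. Same-numbered libraries did not deviate together (correlations of −0.155, 0.021 and −0.157, beside −0.0654 to 0.193 for unlike numbers). With 3 libraries per group such values cannot show whether same-numbered libraries were prepared together, and the sample titles give only a number. With the replicate block the adjusted p of MT-RNR1 was 0.0511.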
